A study of Homo sapiens with 8 samples.

Results

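Decitabine was added to RG3039 in HL-60 cells, a human promyelocytic leukaemia line, and the RNA of cells given both drugs was set against that of cells given RG3039 alone. All genes of the deposited table with a mean normalised value of 10 or more over the 8 libraries were taken, which were 17534 of 60240 identifiers. Combination cells received decitabine at 100 nM on each of days 0 to 2 and RG3039 at 2 µM on day 0. RG3039 cells received 2 µM on day 0 without decitabine, decitabine cells received 100 nM on the same days without RG3039, and DMSO cells received vehicle. All cells carried the label WT, all were harvested at 72 h, and each group held 2 libraries from wells seeded in duplicate. Nothing states that the duplicates were independent cultures, so p-values measure the spread between these libraries, which may be technical. The comparison asks what decitabine changed in cells that also had RG3039, and the same step without RG3039 (decitabine against DMSO) shares no library with it.

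Decitabine, an analogue of deoxycytidine, enters DNA during replication and traps the methyltransferases there, so that cytosine methylation is lost as cells divide. Genes known to be held silent by promoter methylation in blood cells include germline and cancer-testis genes, and low doses of such drugs are known to push leukaemia cells toward maturation. RG3039 is a quinazoline that inhibits DCPS, a decapping enzyme that clears the short capped fragments remaining after messenger RNA is degraded from its 3′ end.

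The libraries counted tags near the 3′ ends of polyadenylated RNA. Estimated depths were 33495900 and 40948700 reads in the combination libraries, 21986900 and 37054600 in the RG3039 libraries, 20712600 and 28607900 in the decitabine libraries, and 40113400 and 21404400 in the DMSO libraries. Promyelocyte genes, by which HL-60 is known, were abundant: MPO, the myeloperoxidase of primary granules, was at 69218 and 74639 in the combination libraries, against 80167 and 92757 in the RG3039 libraries. None of the 13 tested promyelocyte identity genes was called between these groups (median log2 fold change 0.03, and -0.002 with upper-quartile scaling; 1 was higher with quantile normalization).

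More genes were called higher than lower when decitabine was added to RG3039, by a margin that depended on the fit. At an adjusted p under 0.05, 399 of 17534 genes were called (2.28%), of which 261 rose (1.49%) and 138 fell (0.787%). The median log2 fold change was 1.96 among the genes that rose and -0.95 among those that fell, against 0.02 over all tested genes. Medians of called genes depend on which changes could be called, so they do not compare the sizes of rises and falls. Of the 261 that rose, 40 were under 5 in both RG3039 libraries, where the change depends on the pseudocount. At least 2-fold changes were seen in 222 of the genes that rose and 59 of those that fell. The 138 genes that fell were more abundant to begin with: their median RG3039 level was 2003, against 119 for the 261 that rose and 213 over all tested genes. Upper-quartile scaling gave 267 genes higher and 220 lower, a share of 54.8% higher in place of 65.4%, and the fit without the variance trend gave 139 higher and 8 lower. The count rested on each library of the comparison: 21 genes were called without combination replicate 1, 34 without combination replicate 2, 59 without RG3039 replicate 1 and 177 without RG3039 replicate 2. It was 255 and 213 without decitabine replicate 1 or 2, which enter only through the shared estimate of spread. In bulk RNA, fewer cells expressing a gene and less RNA per cell cannot be told apart.

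A set of 18 genes, all of them higher, was called in the full comparison and again without each of the 8 libraries in turn. The leading one was PNMA5 (chrX:152988824-152994127 on GRCh38, X chromosome), of the paraneoplastic Ma antigen family that derives from retrotransposon capsid genes. PNMA5 was at 3079 and 3511 in the combination libraries, against 33.6 and 26.3 in the RG3039 libraries, a log2 fold change of 6.74 ± 0.32 (SE) with adjusted p = 4.23e-05. Its level was 7735 and 10197 in the decitabine libraries, against 19.7 and 39.2 in the DMSO libraries. HDC (chr15:50241947-50266026), which makes histamine from histidine, was at 923 and 1015 in the combination libraries, against 8.8 and 17.1 in the RG3039 libraries (6.18 ± 0.38, adjusted p = 0.00013). Combination and RG3039 values stood far apart in both genes, and decitabine libraries were also far above DMSO libraries. RAB13 (chr1:153981617-153986358), a small GTPase of vesicle transport, was at 376 and 498 in the combination libraries, against 5.28 and 6.2 in the RG3039 libraries (6.01 ± 0.40, adjusted p = 0.000166). DCAF4L1 (chr4:41981696-41986467), named for its likeness to a substrate receptor of a ubiquitin ligase, was at 1538 and 1688, against 36.3 and 35.8 in the RG3039 libraries (5.44 ± 0.31, adjusted p = 0.000112). FAM9C (chrX:13035618-13044682), of a testis-expressed family on the X chromosome, was at 1109.5 and 1143, against 48.9 and 38.9 in the RG3039 libraries (4.66 ± 0.27, adjusted p = 0.000112).

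The other genes of that set covered several functions. PPP1R27, a regulatory subunit of protein phosphatase 1, was at 804 and 903 in the combination libraries, against 65.7 and 60.2 in the RG3039 libraries (3.74 ± 0.24, adjusted p = 0.000166). The long noncoding RNA AL160408.3 (chr1:234669523-234696153) was at 648 and 706, against 2.69 and 7.16 in the RG3039 libraries (6.95 ± 0.52, adjusted p = 0.00039). Both were low in RG3039 cells and in DMSO cells. Among abundant genes, CYP1B1, a cytochrome P450 that oxidises oestrogens and polycyclic aromatic compounds, was at 16105 and 18713 in the combination libraries, against 4211 and 4702 in the RG3039 libraries (1.96 ± 0.14, adjusted p = 0.000335). CES1, a carboxylesterase that hydrolyses ester drugs, was at 8659 and 10016, against 2106 and 2661 in the RG3039 libraries (1.98 ± 0.19, adjusted p = 0.00204). CD52, a small surface glycoprotein of mature leukocytes, was at 5279 and 6572, against 979.5 and 1167 in the RG3039 libraries (2.46 ± 0.24, adjusted p = 0.00192). These last 3 genes were highest in the combination and lowest in DMSO cells, with the single drugs between them. NAV3, a neuron navigator protein, had 2.90 ± 0.26 and adjusted p = 0.00145. GCNA, a germ-cell protein that resolves DNA-protein crosslinks, was at 783 and 832, against 67.2 and 95.5 in the RG3039 libraries (3.32 ± 0.33, adjusted p = 0.00219). GP1BB, a subunit of the platelet receptor for von Willebrand factor, was at 1013 and 665, was listed at 0 in both RG3039 libraries, and was at 639 and 533 in the decitabine and 273 and 27.2 in the DMSO libraries (adjusted p = 0.00109 for combination against RG3039). Its level is uncertain because SEPT5 and the readthrough gene SEPT5-GP1BB overlap it on the same strand. ADAM8, CCL5, GATA2 and MAGEB2, also of the 18, are described with their groups.

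**Figure D1:**
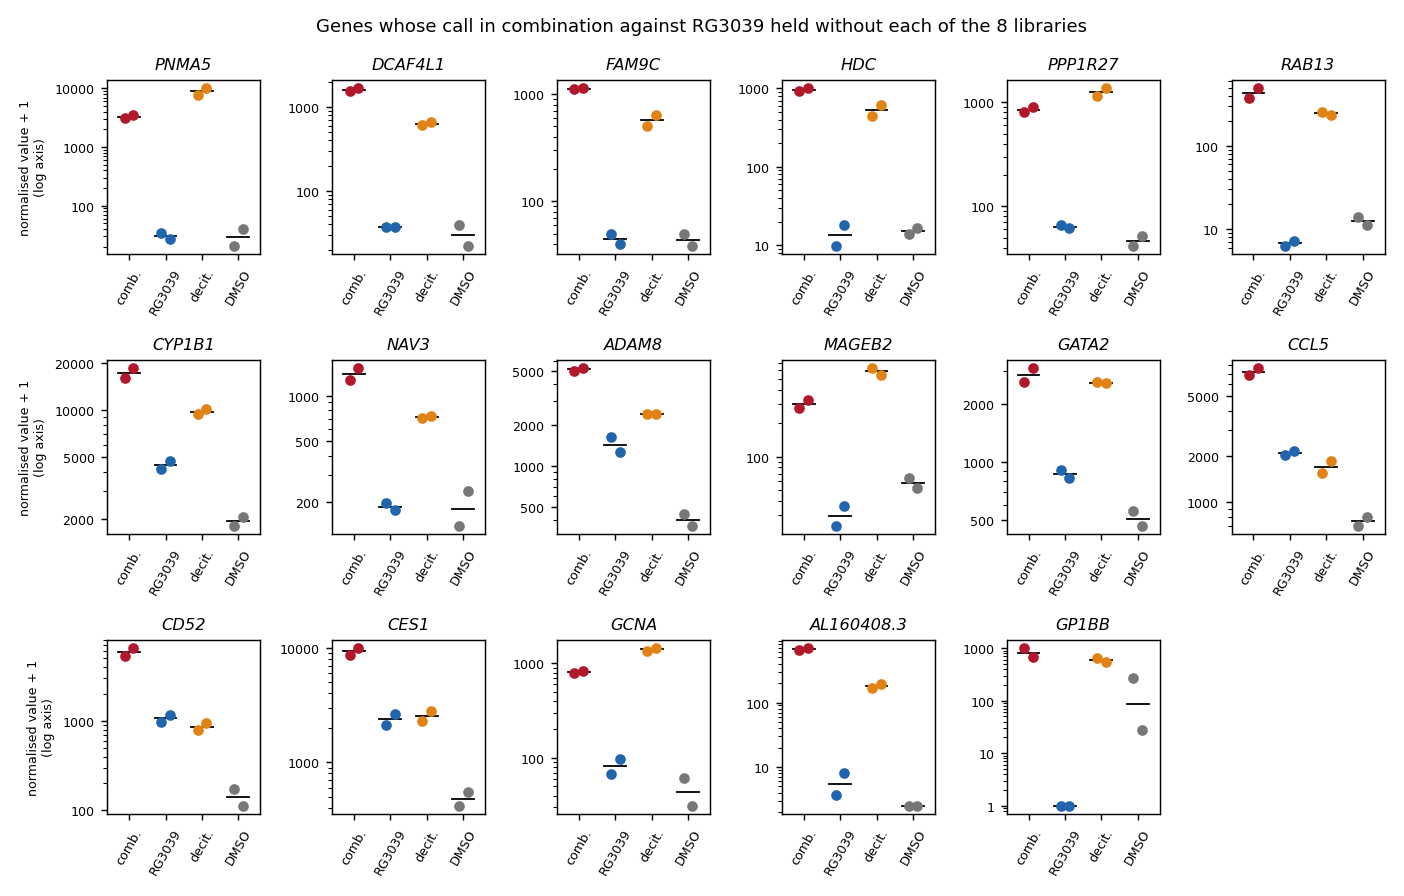
Normalised value + 1 (log axis, which differs between panels) in each library of the 4 groups for 17 of the 18 genes called in combination against RG3039 and again without each of the 8 libraries; points are libraries and bars are means on the log scale. In every panel both combination libraries lie above both RG3039 libraries, and PNMA5 reaches 3079 and 3511 against 33.6 and 26.3.

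Because decitabine acts on CpG methylation, the promoter windows of 6 genes that were far higher in the combination are shown, from RefSeq on GRCh38.p14, 300 bases each from 250 before to 50 after the annotated start, on the strand of the gene. GP1BB (chr22:19723289-19723588), TUBA3D (chr2:131475869-131476168), LINC01344 (chr1:182314012-182314311) and AKAP12 (chr6:151239717-151240016) had the largest log2(value + 1) differences among named genes with a window, and PNMA5 (chrX:152994067-152994366) and H2AC14 (chr6:27814728-27815027) were chosen after their values were seen. Capitals mark each CG, searched as CG, which reads the same on both strands. For PNMA5 and AKAP12 the first of 3 listed windows is given.
PNMA5: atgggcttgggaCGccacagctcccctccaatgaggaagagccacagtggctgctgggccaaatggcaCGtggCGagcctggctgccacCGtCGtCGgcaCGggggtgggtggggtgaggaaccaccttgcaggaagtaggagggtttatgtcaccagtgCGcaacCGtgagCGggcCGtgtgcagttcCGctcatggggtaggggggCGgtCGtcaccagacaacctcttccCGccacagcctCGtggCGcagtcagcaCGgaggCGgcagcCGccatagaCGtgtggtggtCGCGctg
GP1BB: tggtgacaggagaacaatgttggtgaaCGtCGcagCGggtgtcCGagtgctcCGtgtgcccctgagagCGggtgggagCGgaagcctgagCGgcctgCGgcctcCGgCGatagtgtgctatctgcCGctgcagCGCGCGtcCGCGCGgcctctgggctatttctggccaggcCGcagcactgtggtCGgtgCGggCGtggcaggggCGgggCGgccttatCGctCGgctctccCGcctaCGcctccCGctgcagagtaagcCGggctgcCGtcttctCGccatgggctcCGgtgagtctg
TUBA3D: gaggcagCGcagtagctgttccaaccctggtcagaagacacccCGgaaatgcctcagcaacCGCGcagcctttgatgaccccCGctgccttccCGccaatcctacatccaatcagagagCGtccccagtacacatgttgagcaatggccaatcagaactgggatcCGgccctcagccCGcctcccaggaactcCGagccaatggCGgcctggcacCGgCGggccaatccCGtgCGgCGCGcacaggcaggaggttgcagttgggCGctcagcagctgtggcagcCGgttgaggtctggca
LINC01344: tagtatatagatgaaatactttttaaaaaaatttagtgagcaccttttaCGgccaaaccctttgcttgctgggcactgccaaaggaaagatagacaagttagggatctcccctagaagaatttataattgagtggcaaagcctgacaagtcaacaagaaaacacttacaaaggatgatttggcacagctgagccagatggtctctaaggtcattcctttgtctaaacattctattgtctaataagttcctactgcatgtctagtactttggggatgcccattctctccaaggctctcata
AKAP12: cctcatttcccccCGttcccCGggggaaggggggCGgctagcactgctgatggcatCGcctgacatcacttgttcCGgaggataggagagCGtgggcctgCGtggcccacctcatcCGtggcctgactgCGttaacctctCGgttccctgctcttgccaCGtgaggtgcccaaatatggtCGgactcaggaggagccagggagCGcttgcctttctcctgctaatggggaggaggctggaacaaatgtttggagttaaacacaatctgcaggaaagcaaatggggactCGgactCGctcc
H2AC14: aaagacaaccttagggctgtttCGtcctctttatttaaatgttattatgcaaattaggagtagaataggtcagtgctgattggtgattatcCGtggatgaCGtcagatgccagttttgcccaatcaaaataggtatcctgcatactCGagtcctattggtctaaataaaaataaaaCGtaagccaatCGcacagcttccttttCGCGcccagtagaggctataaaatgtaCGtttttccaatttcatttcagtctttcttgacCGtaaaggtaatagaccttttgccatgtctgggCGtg
These windows hold 23 CGs in PNMA5, 33 in GP1BB, 19 in TUBA3D, 1 in LINC01344, 15 in AKAP12 and 11 in H2AC14. Of all 35116 windows in the table, 96.0% hold at least 1 CG, with a median of 14. The 6 windows thus run from nearly free of CGs to above the median of all windows. Only GP1BB exceeds 26, the median of tested protein-coding genes with a window. The GP1BB window lies inside the gene span used for its expression, which starts at 19722945. Over tested protein-coding genes, 110 of 133 that fell had a window, with a median of 27.5 CGs, against 26 over 10534 tested genes with one. Of the 230 protein-coding genes that rose only 171 (74.3%) had a window, under the 80% at which such a comparison is made, so that comparison is void. No methylation was measured here.

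Many genes that rose were close to undetected in RG3039 cells. Of the 261, 40 (15.3%) had values under 5 in both RG3039 libraries, against 201 (1.15%) of the 17534 tested genes; such genes passed the filter only through other libraries where they were high. In 33 of these 40 both DMSO libraries were under 5 too, so that only libraries with decitabine could bring them past the filter. Of these 33, 24 were also called higher in decitabine against DMSO, against 27 of the 82 tested genes with such low values. No fold change is given against such levels. AKAP12, a scaffold for protein kinases A and C, was at 239 and 273 in the combination libraries, against 0 and 1.94 in the RG3039 libraries (adjusted p = 0.0039), and at 47 and 53.7 in decitabine cells, against 0 and 0 in DMSO cells. OTP, a homeobox gene of the developing hypothalamus, was at 175 and 319 in the combination libraries, against 3.39 and 0.67 in the RG3039 libraries (adjusted p = 0.0039), and at 294 and 179 in decitabine cells, against 0.637 and 0 in DMSO cells. LINC01344, a long noncoding RNA, was at 215 and 167 in the combination libraries, against 0 and 0.623 in the RG3039 libraries (adjusted p = 0.00839), and at 51.1 and 13.7 in decitabine cells, against 0 and 1.97 in DMSO cells. In all 3 genes every library with decitabine stood above every library without it. Of 125 homeobox and developmental factors matched, 36 were tested. OTP alone rose and DLX2 alone fell (2.78% each, against 1.49% and 0.787% of all tested genes). The list median was 0.05, and -0.10 with quantile normalization. Other genes were high in the combination alone. SEMA3A, a secreted axon guidance factor, was at 634 and 142 in the combination libraries, against 0.805 and 3.8 in the RG3039 libraries (adjusted p = 0.015), 3.23 and 3.96 in the decitabine libraries and 1.51 and 9.13 in the DMSO libraries. ACSBG1, an acyl-CoA synthetase, was at 197 and 78.4, against 0 and 0.308 in the RG3039 libraries (adjusted p = 0.0336), 1.04 and 5.23 in the decitabine libraries and 1.17 and 24.4 in the DMSO libraries. The pseudogene AC025048.6 was at 203 and 64.6 in the combination libraries and listed at 0 in the other 6 libraries (adjusted p = 0.0383). In these last 3 the pair of combination libraries differed by more than 2-fold. Of the 10 called genes, 9 and 9 lost their call without combination replicate 1 or 2, 4 and 2 without RG3039 replicate 1 or 2, 0 and 2 without decitabine replicate 1 or 2, and 0 and 0 without DMSO replicate 1 or 2 (highest adjusted p 0.361), and the call of AL160408.3 held without each of the 8 libraries; this set is the 6 genes just described with AL160408.3, H2AC14, TUBA3D and TKTL1.

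Germline genes were among those that rose most. Cancer-testis antigens are X-linked and other genes normally confined to the testis, and 23 of the 84 matched were tested. Of these, 6 rose (26.1%, against 1.49% of all tested genes) and none fell. TKTL1, VCX and PAGE2B, near 0 in RG3039 and DMSO cells, passed the filter only through libraries with decitabine. The share of 26.1% is thus partly set by the filter. MAGEB2, of the melanoma antigen family, was at 275 and 326 in the combination libraries, against 22.8 and 35 in the RG3039 libraries, and at 632 and 548 in decitabine cells, against 62.8 and 51.3 in DMSO cells (combination against RG3039 3.36 ± 0.32, adjusted p = 0.00177). TKTL1, a transketolase-like gene, was at 90.7 and 73.7, against 0 and 0.796 in the RG3039 libraries (adjusted p = 0.00647). Both genes were higher in decitabine cells than in combination cells. VCX was at 164 and 103, against 2.69 and 0 in the RG3039 libraries (adjusted p = 0.014), and PAGE2B at 84.6 and 65.2, against 2.73 and 0 (adjusted p = 0.0255). CT45A3 (adjusted p = 0.034) and CTAG1A (adjusted p = 0.0371) were at 25.8 and 39.3 and at 20.8 and 40.7 in the combination libraries and listed at 0 in both RG3039 libraries. All 4 of these have near-identical copies, so their levels are uncertain. The list median was 0.23, and -0.25 without combination replicate 1. Of 33 tested genes of piRNA and meiosis, 5 rose (15.2%) and 1 fell (3.03%), with a median of 0.40. The shares of all tested genes were 1.49% and 0.787%. TUBA3D, at 0 in RG3039 and DMSO cells, and MAEL, low in both, passed the filter only through libraries with decitabine. The share of 15.2% is thus partly set by the filter too. MAEL, needed to silence transposons in germ cells, was at 247 and 249 in the combination libraries, against 34.3 and 20.3 in the RG3039 libraries (3.18 ± 0.42, adjusted p = 0.00826). PIWIL4, a piRNA-binding protein whose locus overlaps FUT4 on the same strand, had 1.64 ± 0.24 (adjusted p = 0.014), and STAG3, a meiotic cohesin subunit, had 2.04 ± 0.38 (adjusted p = 0.0315). TUBA3D, a testis tubulin with close paralogs, was at 169.8 and 166 and DAZL, a germ-cell RNA-binding protein, at 30.8 and 33.7 in the combination libraries, and both were listed at 0 in both RG3039 libraries (adjusted p = 0.00204 and adjusted p = 0.0361). PLD6, a mitochondrial enzyme of piRNA processing, fell, at 205 and 233, against 519 and 470.3 in the RG3039 libraries (-1.17 ± 0.21, adjusted p = 0.0272). Of 7 PNMA family genes, PNMA5 and PNMA6E rose (28.6%, list median 0.23, and -0.17 without combination replicate 1). PNMA6E was at 94.6 and 77, against 2.22 and 8.78 in the RG3039 libraries (3.94 ± 0.83, adjusted p = 0.0452). It passed the filter only through libraries with decitabine, so the share of 28.6% is also partly set by the filter. On the X chromosome lay 16 of the genes that rose (6.13%), 5 of those that fell (3.62%) and 558 of all tested (3.18%). Of the 14 called genes, 12 and 12 lost their call without combination replicate 1 or 2, 8 and 7 without RG3039 replicate 1 or 2, 5 and 6 without decitabine replicate 1 or 2, and 0 and 0 without DMSO replicate 1 or 2 (highest adjusted p 0.272), and the calls of MAGEB2 and PNMA5 held without each of the 8 libraries.

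Histone genes rose in 5 of 57 tested cases (8.77%, against 1.49% of all tested genes) and fell in none, with a list median of 0.08. Among the 5, H2AC14 and H1-1 were near 0 in RG3039 and DMSO cells and passed the filter only through libraries with decitabine. The share of 8.77% is thus partly set by the filter. H2AC13 was at 433 and 354 in the combination libraries, against 33.6 and 27.9 in the RG3039 libraries (3.63 ± 0.37, adjusted p = 0.00219), and at 274 and 211 in decitabine cells, against 38.6 and 22.6 in DMSO cells. The core histone gene H2AC14 was at 159.8 and 169, against 0 and 0.796 in the RG3039 libraries (adjusted p = 0.0039). The linker histone gene H1-1 was at 91.6 and 94.8, against 0 and 0.796 in the RG3039 libraries (adjusted p = 0.00691). H2AJ, a replication-independent H2A, was at 57.6 and 87.1, against 0 and 3.07 in the RG3039 libraries (adjusted p = 0.0449). The tested histone genes outside these 5 did not pass the test, and tags of replication-dependent histones, which lack poly(A) tails and have close paralogs, are uncertain. Of the 4 called genes named here, 4 and 3 lost their call without combination replicate 1 or 2, 1 and 1 without RG3039 replicate 1 or 2, 1 and 1 without decitabine replicate 1 or 2, and 0 and 0 without DMSO replicate 1 or 2 (highest adjusted p 0.25).

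Genes of neutrophil and eosinophil granules rose in part. Of 30 tested genes of secondary and tertiary granules, which form late in neutrophil maturation, 5 rose (16.7%, against 1.49% of all tested genes) and none fell, with a list median of 0.73. MMP9, the gelatinase of tertiary granules, was at 941 and 963 in the combination libraries, against 117 and 121 in the RG3039 libraries, and at 76.9 and 102 in decitabine cells, against 10.6 and 7.55 in DMSO cells. Its log2 fold change was 2.99 ± 0.33 against RG3039 (adjusted p = 0.00384) and 3.17 for decitabine against DMSO. ADAM8, a surface metalloprotease, was at 5026 and 5297 in the combination libraries, against 1622 and 1267 in the RG3039 libraries (1.85 ± 0.17, adjusted p = 0.00177). TCN1, the vitamin B12 binder haptocorrin, was at 478 and 501, against 84.9 and 45.4 in the RG3039 libraries (2.96 ± 0.37, adjusted p = 0.0066). HP, haptoglobin, had 1.34 ± 0.25 (adjusted p = 0.0316) and MMP25, a membrane-anchored protease, 1.20 ± 0.24 (adjusted p = 0.0361). Of 32 tested primary granule and promyelocyte genes, 4 rose and none fell, with a median of 0.09, and 3 of these 4 encode eosinophil granule proteins. EPX, eosinophil peroxidase, was at 2108 and 2707 in the combination libraries, against 656 and 770.4 in the RG3039 libraries (1.75 ± 0.26, adjusted p = 0.014). PRG2, eosinophil major basic protein, was at 65472 and 67395, against 36782 and 38882 in the RG3039 libraries (0.81 ± 0.14, adjusted p = 0.0237), and RNASE3, eosinophil cationic protein, had 0.86 ± 0.18 (adjusted p = 0.0434). The defensin gene DEFA3, whose reads cannot be told from those of DEFA1, was at 613 and 642, against 228 and 149.6 in the RG3039 libraries (1.76 ± 0.22, adjusted p = 0.0066). Of the 9 called genes, 8 and 8 lost their call without combination replicate 1 or 2, 5 and 4 without RG3039 replicate 1 or 2, 2 and 2 without decitabine replicate 1 or 2, and 0 and 0 without DMSO replicate 1 or 2 (highest adjusted p 0.28), and the call of ADAM8 held without each of the 8 libraries.

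A minority of monocyte genes rose. Of 76 tested markers of monocyte and macrophage maturation, 9 rose (11.8%, against 1.49% of all tested genes) and none fell, with a list median of 0.48; upper-quartile scaling and quantile normalization each called 1 lower. CCR1, a chemokine receptor of monocytes and neutrophils, was at 2717 and 2654 in the combination libraries, against 979.5 and 971 in the RG3039 libraries (1.46 ± 0.15, adjusted p = 0.00288). CSF1R, the macrophage colony-stimulating factor receptor, was at 141 and 202, against 10.7 and 27.9 in the RG3039 libraries (3.20 ± 0.53, adjusted p = 0.0189). In these genes both combination libraries also exceeded all decitabine and DMSO libraries. CD86, a T-cell costimulator, was at 438 and 643 in the combination libraries, against 101 and 99.4 in the RG3039 libraries (2.39 ± 0.40, adjusted p = 0.0203), with 239 and 138 in decitabine cells, against 127 and 270.4 in DMSO cells. CD44, the hyaluronan receptor, was at 1919 and 2023, against 757 and 1019 in the RG3039 libraries (1.16 ± 0.19, adjusted p = 0.0189), and at 1952 and 1727 in decitabine cells, against 1919 and 1501 in DMSO cells. The RG3039 libraries were thus the low group for CD44, and the combination lay near the DMSO level. S100A12 (1.25 ± 0.18, adjusted p = 0.0136) and S100A10 (1.83 ± 0.28, adjusted p = 0.0147), calcium-binding proteins, also rose, as did IL1B and CTSS. Of 12 genes of the phagocyte NADPH oxidase, which makes superoxide, 3 rose and none fell, with a median of 0.21. Among them NCF1, an organiser subunit with near-identical pseudogenes, was at 6839 and 6314, against 3252 and 3426 in the RG3039 libraries (0.98 ± 0.19, adjusted p = 0.034), and HVCN1, the proton channel that balances the oxidase's charge, had 0.81 ± 0.16 (adjusted p = 0.034). Of the 10 called genes named here, 10 and 9 lost their call without combination replicate 1 or 2, 9 and 6 without RG3039 replicate 1 or 2, 2 and 2 without decitabine replicate 1 or 2, and 1 and 1 without DMSO replicate 1 or 2 (highest adjusted p 0.299).

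**Figure D2:**
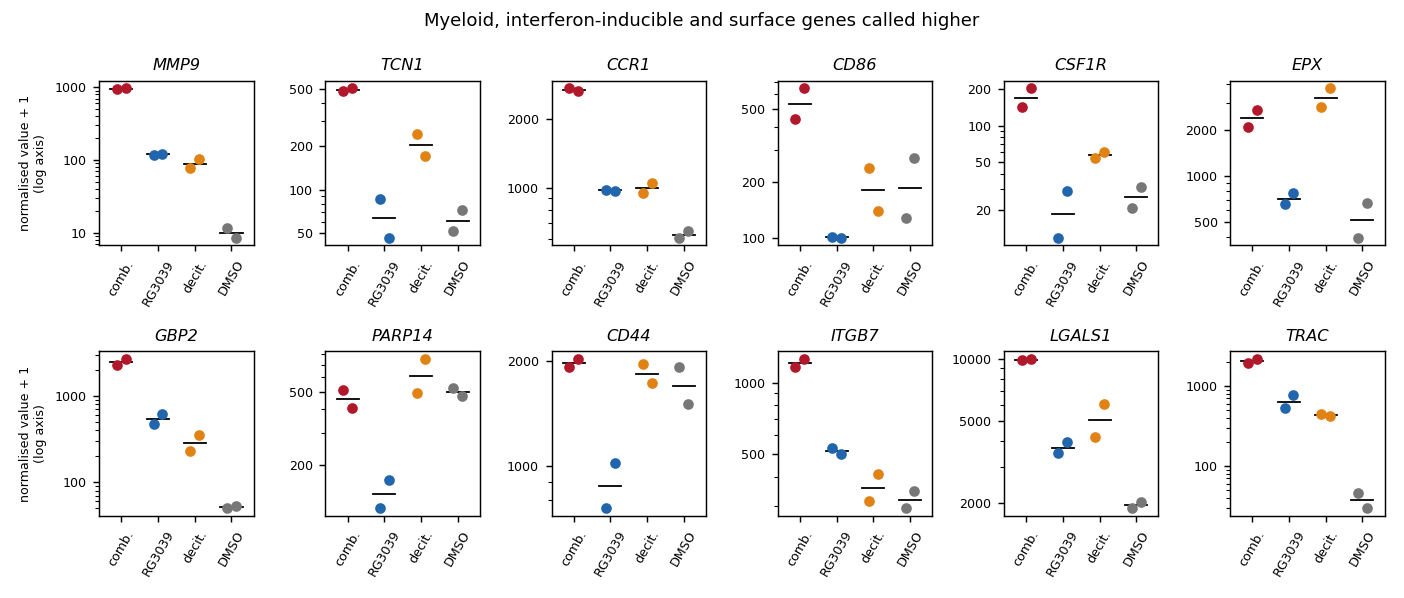
Normalised value + 1 (log axis, which differs between panels) in each library of the 4 groups for 12 myeloid, interferon-inducible and surface genes called higher in combination against RG3039; points are libraries and bars are means on the log scale. MMP9, GBP2 and TRAC are highest in the combination and lowest in DMSO cells, whereas RG3039 cells are the lowest group for PARP14 and CD44.

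Chemokines, interleukins and their receptors rose in 11 of 59 tested cases (18.6%, against 1.49% of all tested genes) and fell in none. Log2 fold changes were positive in 53 of the 59 (median 0.92, and 0.59 with a mean of at least 50). CCL5, a T-cell and monocyte attractant, was at 6815 and 7629 in the combination libraries, against 2041 and 2177 in the RG3039 libraries (1.77 ± 0.16, adjusted p = 0.00136), and at 1553 and 1859 in decitabine cells, against 699 and 800.0 in DMSO cells. CCL3, a macrophage inflammatory protein, was at 204 and 287, against 29.7 and 36 in the RG3039 libraries (2.85 ± 0.53, adjusted p = 0.0316), and its near-copy CCL3L1 had 1.91 ± 0.42 (adjusted p = 0.0497). IL32, a proinflammatory cytokine, was at 152 and 130.5, against 23.5 and 31.3 in the RG3039 libraries (2.33 ± 0.42, adjusted p = 0.0273). Both CCL5 and CCL3 reached their highest levels in the combination, while IL32 was as high or higher in decitabine cells, at 161 and 273. IL1RN, the antagonist of the interleukin-1 receptor, was at 2283 and 2353 in the combination libraries, against 1005 and 1031 in the RG3039 libraries (1.19 ± 0.19, adjusted p = 0.017), and IL1B itself was at 300.2 and 257, against 94.8 and 79.7 (1.67 ± 0.35, adjusted p = 0.0463). The receptor genes IL17RA (0.66 ± 0.14, adjusted p = 0.0455), IL4R (0.92 ± 0.20, adjusted p = 0.048) and IL10RA (1.23 ± 0.26, adjusted p = 0.0458) also rose, beside CCR1 and CSF1R. Of the 11 called genes, 10 and 9 lost their call without combination replicate 1 or 2, 9 and 8 without RG3039 replicate 1 or 2, 6 and 6 without decitabine replicate 1 or 2, and 2 and 2 without DMSO replicate 1 or 2 (highest adjusted p 0.299), and the call of CCL5 held without each of the 8 libraries.

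Lists of interferon and antigen presentation genes held 1 to 3 genes called higher each and none called lower. The share called higher of all tested genes was 1.49%, and the class II and guanylate-binding protein shares rest on 1 gene each. Of 53 tested interferon-stimulated genes 3 rose (5.66%, median 0.27), of 21 MHC class I presentation genes 2 rose (9.52%, median 0.06), of 12 class II presentation genes 1 rose (8.33%, median 0.57), and of 8 guanylate-binding protein genes 1 rose (12.5%, median 0.21, and -0.07 with a mean of at least 50). HLA-E, a class I ligand of natural killer cell receptors, was at 6163 and 6433 in the combination libraries, against 3768 and 3777 in the RG3039 libraries (0.74 ± 0.15, adjusted p = 0.0361), and at 3738 and 4418 in decitabine cells, against 3065 and 3625 in DMSO cells. GBP2, an interferon-induced GTPase whose locus overlaps GBP7, was at 2288 and 2684, against 473 and 618 in the RG3039 libraries (2.19 ± 0.26, adjusted p = 0.00582). LGALS3BP, a secreted glycoprotein, was at 64.1 and 92.7, against 2.69 and 5.57 in the RG3039 libraries (3.99 ± 0.60, adjusted p = 0.0141). It was at 9.08 and 6.04 in the DMSO libraries and passed the filter only through libraries with decitabine. The share of 5.66% is thus partly set by the filter. PARP14, an ADP-ribosyltransferase, was at 508 and 406 in the combination libraries, against 116 and 165 in the RG3039 libraries (1.71 ± 0.28, adjusted p = 0.0175), with 488 and 751 in decitabine cells, against 525 and 474 in DMSO cells, so that RG3039 cells were again the low group. IFI16, a DNA sensor, had 1.07 ± 0.22 (adjusted p = 0.0399), and CTSS, the class II processing protease cathepsin S, 0.92 ± 0.19 (adjusted p = 0.0419). Of the 6 called genes named here, 6 and 6 lost their call without combination replicate 1 or 2, 6 and 3 without RG3039 replicate 1 or 2, 2 and 3 without decitabine replicate 1 or 2, and 0 and 0 without DMSO replicate 1 or 2 (highest adjusted p 0.232).

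Some cytoskeleton, matrix and adhesion genes rose, and none fell. AKAP12 and COL14A1 among them were near 0 in RG3039 and DMSO cells and passed the filter only through libraries with decitabine. MYL9, low in RG3039 cells and near 0 in DMSO cells, also passed only through such libraries. The shares of the cytoskeleton and matrix lists are thus partly set by the filter. Of 49 tested actomyosin and cytoskeleton genes 8 rose (16.3%, median 0.41), against 1.49% of all tested genes. Of 35 collagen and matrix genes 6 rose (17.1%, median 1.00, and 0.55 with a mean of at least 50). Of 37 leukocyte integrin and adhesion genes 3 rose (8.11%, median 0.53). LGALS1, the glycan-binding galectin-1, was at 9836 and 9984 in the combination libraries, against 3478 and 3960.1 in the RG3039 libraries (1.42 ± 0.18, adjusted p = 0.00691). MYL9, a myosin regulatory light chain, was at 432 and 558, against 26.9 and 24.7 in the RG3039 libraries (4.20 ± 0.54, adjusted p = 0.00712), and at 31 and 30.1 in decitabine cells, against 0.757 and 0 in DMSO cells. ANXA2 (1.81 ± 0.24, adjusted p = 0.0087), the actin capper CAPG (1.17 ± 0.17, adjusted p = 0.0139), the intermediate filament gene VIM (1.02 ± 0.16, adjusted p = 0.0143) and the tropomyosin genes TPM4 (0.94 ± 0.15, adjusted p = 0.015) and TPM2 (1.41 ± 0.28, adjusted p = 0.0381) rose with them, as did AKAP12. MMP14, a membrane collagenase, was at 1188 and 1294 in the combination libraries, against 191 and 208 in the RG3039 libraries (2.63 ± 0.39, adjusted p = 0.014). Genes of the inhibitors of such proteases rose too, with TIMP1 at 1.36 ± 0.20 (adjusted p = 0.014) and TIMP2 at 1.10 ± 0.21 (adjusted p = 0.0331). COL14A1, a fibril-associated collagen, was at 55.5 and 34.8 in the combination libraries, against 2.04 and 0 in the RG3039 libraries (adjusted p = 0.0175), but at 638 and 642 in decitabine cells, against 0.426 and 0 in DMSO cells, so its highest group was decitabine alone. CD93, a myeloid and endothelial adhesion receptor, was at 291 and 249, against 34.9 and 14.3 in the RG3039 libraries (3.53 ± 0.53, adjusted p = 0.0141). ITGB7, the integrin chain of gut-homing leukocytes, was at 1168 and 1259, against 527 and 499 in the RG3039 libraries (1.24 ± 0.21, adjusted p = 0.0188), with 313 and 409 in decitabine cells, against 293 and 346 in DMSO cells. Of the 17 called genes, 17 and 17 lost their call without combination replicate 1 or 2, 13 and 9 without RG3039 replicate 1 or 2, 2 and 3 without decitabine replicate 1 or 2, and 0 and 0 without DMSO replicate 1 or 2 (highest adjusted p 0.258), with THBS1, MMP9 and CD44 counted among them.

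Genes of other blood lineages held 2 or 3 genes called higher in each list. Of 39 tested stem and progenitor genes 3 rose (7.69%, against 1.49% of all tested genes) and none fell. The list median was 0.32, and 0.14 with a mean of at least 50. GATA2, a transcription factor of progenitors, mast cells and megakaryocytes, was at 2619 and 3096 in the combination libraries, against 915 and 829.9 in the RG3039 libraries (1.71 ± 0.17, adjusted p = 0.00204), and at 2611 and 2581 in decitabine cells, against 555 and 466 in DMSO cells. HOXA10, which overlaps HOXA9 on the same strand, was at 63.3 and 61.1, against 6.72 and 4.77 in the RG3039 libraries (3.24 ± 0.50, adjusted p = 0.0143), and the Ikaros family gene IKZF2 had 1.29 ± 0.26 (adjusted p = 0.0385). Of 28 erythroid, megakaryocyte and platelet genes GP1BB and THBS1 rose (7.14% of the list; 2.70 ± 0.42 for THBS1, adjusted p = 0.015). That list's median was 0.06, and it was -0.40 without combination replicate 1, -0.05 without RG3039 replicate 2 and -0.11 with a mean of at least 50. Markers of lymphoid, stromal and epithelial cells were also read. Of 15 tested, 3 rose (20%) and none fell, with a median of 1.22. CD3D and GNLY among the 3 were low in RG3039 and DMSO cells and passed the filter only through libraries with decitabine. The share of 20% is thus partly set by the filter. TRAC, the constant region of the T-cell receptor alpha chain, was at 1963 and 2183 in the combination libraries, against 523 and 767 in the RG3039 libraries (1.71 ± 0.27, adjusted p = 0.017), and at 442 and 422 in decitabine cells, against 45.4 and 28.7 in DMSO cells. GNLY, the cytotoxic granule protein granulysin, was at 283 and 356, against 18.8 and 20.6 in the RG3039 libraries (3.94 ± 0.72, adjusted p = 0.0293), and CD3D at 61.3 and 104, against 1.34 and 3.17 (adjusted p = 0.0293). LAT, an adaptor of T-cell receptor signalling, was at 1502 and 1855, against 397 and 463 (1.96 ± 0.22, adjusted p = 0.0039). All 37 markers of that list summed to 7510 and 7845 in the combination libraries, against 3281 and 3560 in the RG3039 libraries, 2569 and 2805 in decitabine libraries and 1851 and 1230 in DMSO libraries. PECAM1, KRT8, KRT18 and TRAC made up most of these sums, and 8 markers, CD5, MS4A1, IGHM, JCHAIN, COL3A1, CDH5, KRT5 and KRT19, were listed at 0 in all 8 libraries. The part of other cells in the results was not tested. Of the 9 called genes, 6 and 7 lost their call without combination replicate 1 or 2, 6 and 5 without RG3039 replicate 1 or 2, 2 and 3 without decitabine replicate 1 or 2, and 0 and 0 without DMSO replicate 1 or 2 (highest adjusted p 0.222), and the calls of GATA2 and GP1BB held without each of the 8 libraries.

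**Figure D3:**
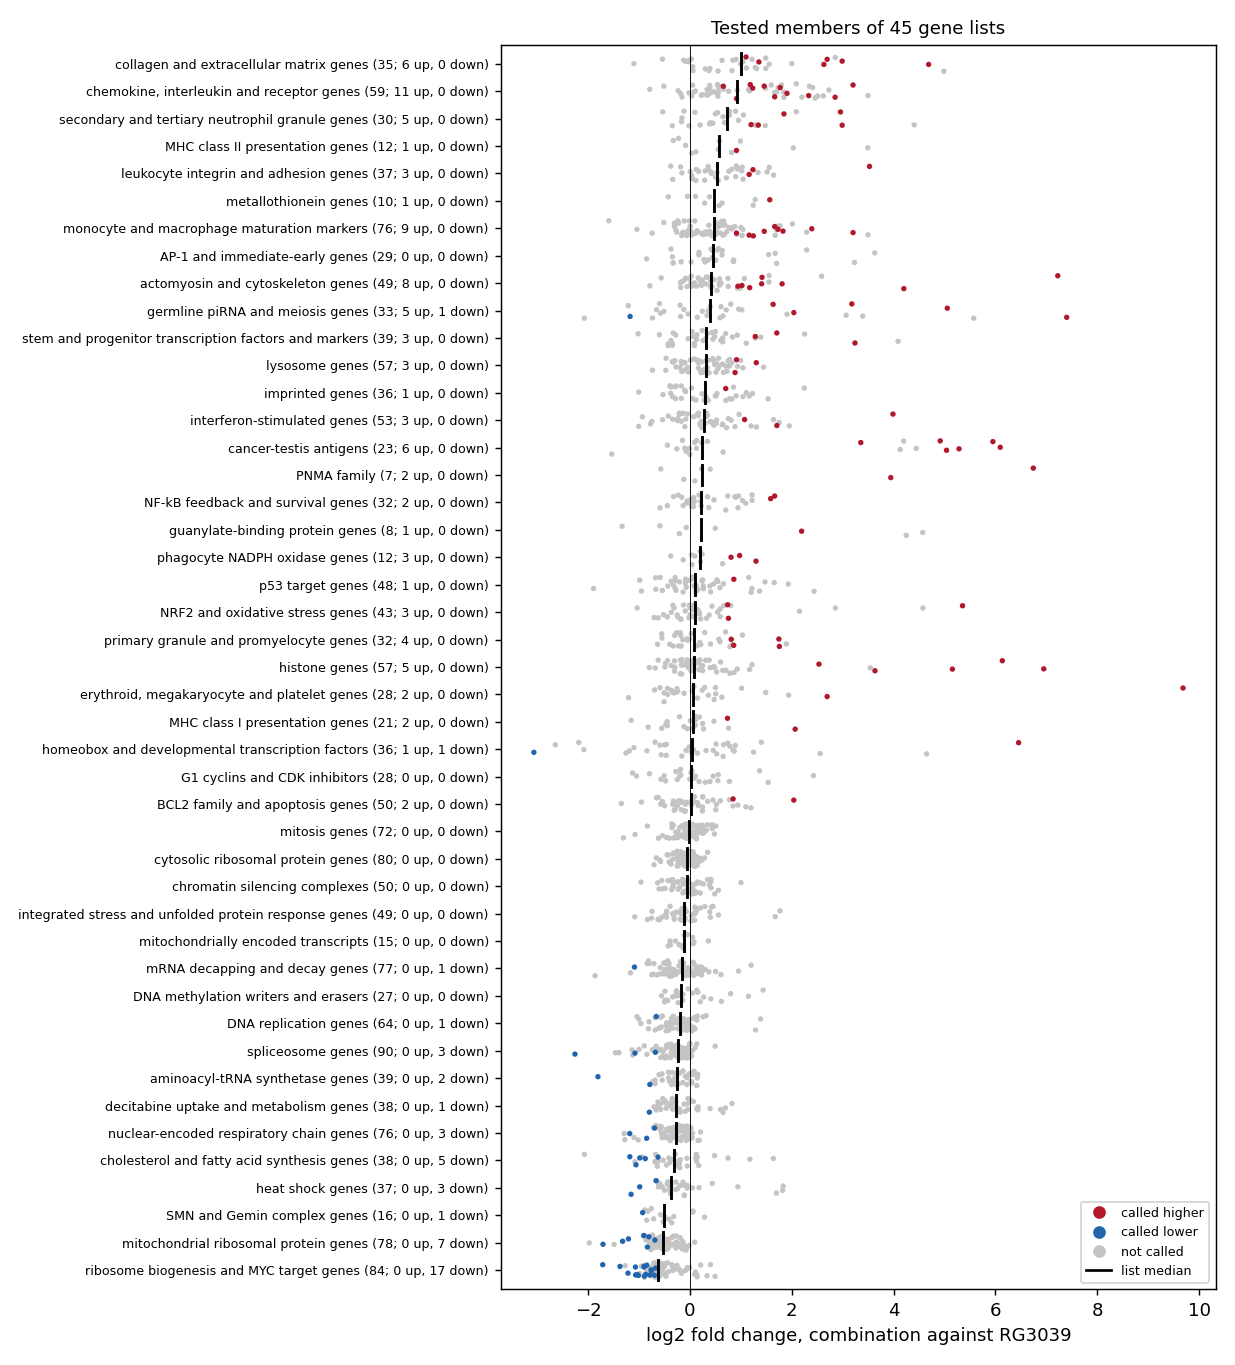
Log2 fold change of combination against RG3039 for the tested members of 45 gene lists, ordered by list median, with the lists of promyelocyte and of other-cell markers not drawn; each point is a gene, black bars are medians, and numbers in brackets are tested members and those called higher (up) and lower (down). Lists of matrix, chemokine and secondary granule genes lie to the right and those of ribosome biogenesis and mitochondrial ribosomal proteins to the left, and genes listed at 0 in a whole group are drawn at their log2(value + 1) difference, which is no measured fold.

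Genes of ribosome biogenesis made up part of those that fell. Of 84 tested ribosome biogenesis and MYC target genes, none rose and 17 fell (20.2%, against 0.787% of all tested genes); 76 had negative log2 fold changes, with a median of -0.63. NOP16, a nucleolar protein of large subunit assembly, was at 657 and 767 in the combination libraries, against 1947 and 1736 in the RG3039 libraries (-1.37 ± 0.16, adjusted p = 0.00582), with 1888 and 1616 in decitabine cells, against 2372 and 2218 in DMSO cells. WDR3, of the small subunit processome, was at 1348 and 1419.8, against 3018 and 2789 in the RG3039 libraries (-1.07 ± 0.14, adjusted p = 0.00709), and EBNA1BP2, of large subunit assembly, at 1849 and 2053, against 4037 and 3816 (-1.01 ± 0.15, adjusted p = 0.0121). Combination cells were the lowest of the 4 groups for all 3 genes. TCOF1, which aids ribosomal DNA transcription, was at 1399 and 1755, against 3362 and 3045 in the RG3039 libraries (-1.03 ± 0.17, adjusted p = 0.0203). DDX21, a nucleolar RNA helicase, was at 10743 and 10809, against 17122 and 17192 in the RG3039 libraries (-0.67 ± 0.12, adjusted p = 0.0289), and ODC1, the first enzyme of polyamine synthesis, at 942 and 1101, against 2888 and 1934 (-1.21 ± 0.22, adjusted p = 0.0301). TERT, the catalytic subunit of telomerase, was at 20.2 and 13.9, against 53 and 61.6 in the RG3039 libraries (-1.71 ± 0.36, adjusted p = 0.0445). The other genes that fell were TSR1, NOP14, LTV1, GAR1, MRTO4, DDX10, BRIX1, NOLC1, POLR1C and RRP9, with log2 fold changes between -1.06 and -0.69. MYC itself was at 628 and 500.0 in the combination libraries, against 1721 and 1062 in the RG3039 libraries (-1.27 ± 0.29), and did not pass the test (adjusted p = 0.0575; named after its values were seen). None of the 80 genes of cytosolic ribosomal proteins was called, and 1 was with upper-quartile scaling (median -0.05, and 0.01 with quantile normalization). Upper-quartile scaling called 25 of the 84. Of the 17 called genes, 17 and 16 lost their call without combination replicate 1 or 2, 17 and 14 without RG3039 replicate 1 or 2, 6 and 10 without decitabine replicate 1 or 2, and 2 and 2 without DMSO replicate 1 or 2 (highest adjusted p 0.273).

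A minority of mitochondrial translation genes fell. Of 78 tested mitochondrial ribosomal protein genes, none rose, 7 fell (8.97%, against 0.787% of all tested genes), and 77 had negative log2 fold changes (median -0.53). MRPS34, of the small mitochondrial subunit, was at 3862 and 3740.0 in the combination libraries, against 6422 and 6865 in the RG3039 libraries (-0.80 ± 0.13, adjusted p = 0.0189). MRPL13, of the large subunit, was at 476 and 512, against 1546 and 985 in the RG3039 libraries (-1.32 ± 0.26, adjusted p = 0.0361), and MRPL36 at 156 and 165, against 700.5 and 393 (-1.70 ± 0.36, adjusted p = 0.0458). In these genes the pair of RG3039 libraries lay wider apart for MRPL13 and MRPL36 than for MRPS34, without meeting the combination. MRPL1, MRPL3, MRPL15 and MRPL47 also fell, by log2 fold changes from -1.21 to -0.69. Upper-quartile scaling called 11 of the 78 and quantile normalization 4. Of 76 nuclear genes of the respiratory chain 3 fell and none rose (median -0.28; 7 fell with upper-quartile scaling and 1 with quantile normalization): NDUFAB1 of complex I (-0.69 ± 0.13, adjusted p = 0.0299), COX7B of complex IV (-1.18 ± 0.22, adjusted p = 0.0324) and ATP5MC3 of the ATP synthase (-0.85 ± 0.18, adjusted p = 0.0495). None of the 15 mitochondrially encoded transcripts was called (median -0.12). Of 37 heat shock genes 3 fell and none rose (median -0.37). HSPE1, the mitochondrial co-chaperonin, was at 3715 and 3554, against 8138 and 6348 in the RG3039 libraries (-0.98 ± 0.16, adjusted p = 0.0164), and the cytosolic chaperonin subunits CCT2 (-1.15 ± 0.23, adjusted p = 0.0371) and CCT5 (-0.66 ± 0.14, adjusted p = 0.0423) were the others. Of 39 aminoacyl-tRNA synthetase genes 2 fell and none rose (median -0.26), and both charge methionine tRNA: MARS2 in mitochondria (-1.80 ± 0.34, adjusted p = 0.0336) and MARS1 in the cytosol (-0.79 ± 0.15, adjusted p = 0.0336). Of the 15 called genes, 15 and 15 lost their call without combination replicate 1 or 2, 15 and 10 without RG3039 replicate 1 or 2, 7 and 8 without decitabine replicate 1 or 2, and 2 and 4 without DMSO replicate 1 or 2 (highest adjusted p 0.309).

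**Figure D4:**
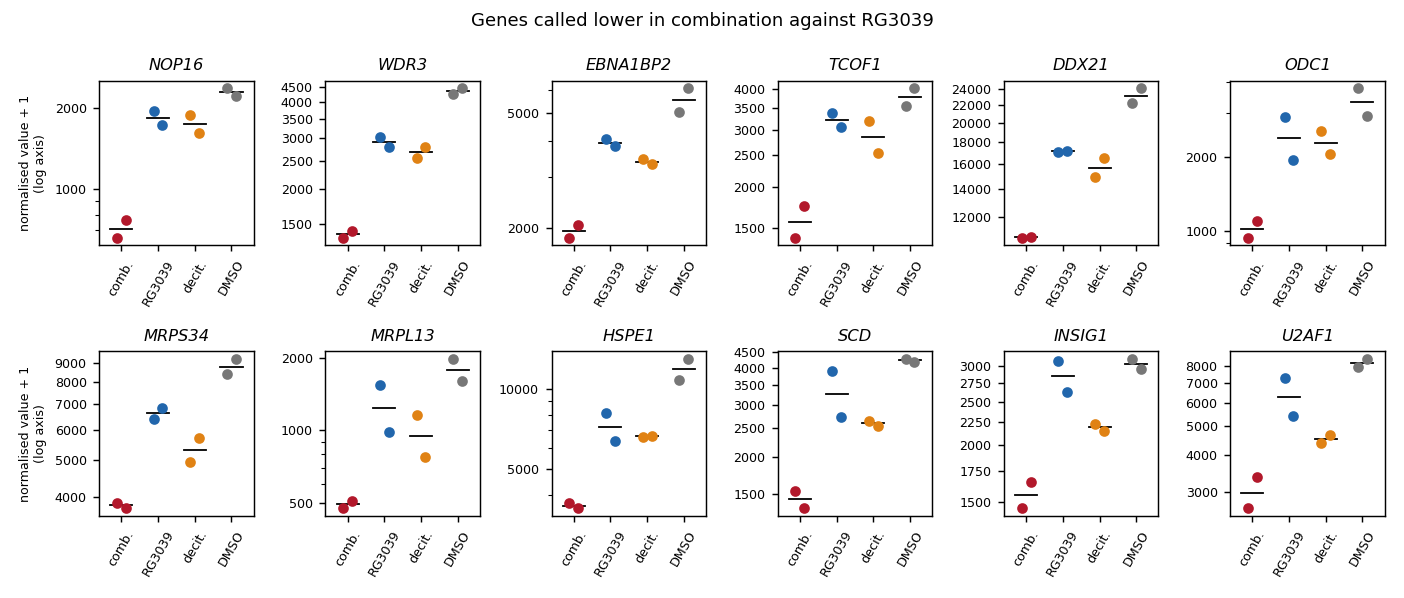
Normalised value + 1 (log axis, which differs between panels) in each library of the 4 groups for 12 genes called lower in combination against RG3039, from the ribosome biogenesis, mitochondrial, heat shock, lipid and spliceosome lists; points are libraries and bars are means on the log scale. In every panel both combination libraries lie below all other libraries, as for NOP16 at 657 and 767 against 1947 and 1736 in RG3039 cells.

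Lipid synthesis and RNA processing genes were also among those that fell. Of 38 cholesterol and fatty acid synthesis genes 5 fell (13.2%, against 0.787% of all tested genes) and none rose (median -0.32). SCD, which makes monounsaturated fatty acids, was at 1544 and 1347 in the combination libraries, against 3891 and 2738 in the RG3039 libraries (-1.18 ± 0.18, adjusted p = 0.0143). INSIG1, a sterol-sensing retention protein, was at 1449.7 and 1654, against 3076 and 2625 in the RG3039 libraries (-0.88 ± 0.15, adjusted p = 0.021). The cholesterol enzymes DHCR7 (-1.06 ± 0.18, adjusted p = 0.0216) and IDI1 (-0.98 ± 0.21, adjusted p = 0.0452) and the fatty acid synthase FASN (-0.62 ± 0.13, adjusted p = 0.0466) were the others. Of 90 spliceosome genes 3 fell (3.33%) and none rose, and 82 had negative log2 fold changes (median -0.24). U2AF1, which reads the 3′ splice site, was at 2639 and 3361, against 7279.9 and 5423 in the RG3039 libraries (-1.08 ± 0.18, adjusted p = 0.0181). HNRNPL, a splicing regulator, was at 1014 and 619, against 5651 and 2542 in the RG3039 libraries (-2.26 ± 0.40, adjusted p = 0.0257), with a wide gap between the RG3039 libraries, and SF3A3 had -0.68 ± 0.13 (adjusted p = 0.0308). Of 16 genes of the SMN and Gemin complex, which loads Sm rings on small nuclear RNAs, STRAP alone fell (-0.93 ± 0.19, adjusted p = 0.0388; list median -0.51). Of 77 genes of messenger RNA decapping and decay, the pathway in which DCPS acts last, the exosome subunit gene EXOSC5 alone fell, at 614 and 737, against 1407 and 1454 in the RG3039 libraries (-1.09 ± 0.16, adjusted p = 0.014; list median -0.15), a share of 1.3%, close to that of all tested genes. Upper-quartile scaling called 7 of the 90 spliceosome genes. Of the 10 called genes, 10 and 10 lost their call without combination replicate 1 or 2, 10 and 7 without RG3039 replicate 1 or 2, 3 and 5 without decitabine replicate 1 or 2, and 1 and 2 without DMSO replicate 1 or 2 (highest adjusted p 0.283).

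The 10 largest falls among called genes with a mean of at least 20 over the 8 libraries were of mixed function. DLX2, a homeobox gene of forebrain development, was at 4.15 and 5.6 in the combination libraries, against 54.9 and 41.4 in the RG3039 libraries (-3.06 ± 0.53, adjusted p = 0.0231). MS4A6A, a membrane protein of monocytes, was at 10.8 and 13.8, against 124 and 51 in the RG3039 libraries (-2.61 ± 0.45, adjusted p = 0.0231), and at 222 and 129.8 in decitabine cells, against 715 and 739 in DMSO cells. CACNA2D3, a calcium channel subunit, was at 9.16 and 16.1, against 69.9 and 59.7 in the RG3039 libraries (-2.31 ± 0.48, adjusted p = 0.0434), and at 58 and 30.1 in decitabine cells, against 259 and 190.2 in DMSO cells. Levels of the last 2 genes were highest in DMSO cells and lowest in the combination. The long noncoding RNA AL590705.3 was listed at 0 in both combination libraries, against 43 and 29.4 in the RG3039 libraries (adjusted p = 0.0151). NPIPA3, of a segmentally duplicated family whose reads are hard to place, had -2.58 ± 0.54 (adjusted p = 0.044), and GPD1L, a glycerol-3-phosphate dehydrogenase-like gene, had -1.64 ± 0.33 (adjusted p = 0.0373). The remaining members of these 10, HNRNPL, MARS2, TERT and MRPL36, are given above. Of the 10 called genes, 10 and 10 lost their call without combination replicate 1 or 2, 10 and 7 without RG3039 replicate 1 or 2, 4 and 5 without decitabine replicate 1 or 2, and 4 and 4 without DMSO replicate 1 or 2 (highest adjusted p 0.289).

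Proliferation, DNA damage and stress lists held 0 to 3 called genes each. Of all tested genes 1.49% were called higher and 0.787% lower. The shares called higher were 10% of metallothionein, 6.98% of NRF2, 6.25% of NF-kB, 5.26% of lysosome and 4% of BCL2 family genes. They were 2.78% of imprinted and 2.08% of p53 target genes, and 1.56% of DNA replication genes were called lower. None of 72 mitosis genes (median -0.03), 28 G1 cyclins and CDK inhibitors (0.03), 29 AP-1 and immediate-early genes (0.45), 49 integrated stress and unfolded protein response genes (-0.11) or 50 chromatin silencing genes (-0.06) was called; quantile normalization made the mitosis median 0.04 and called 1 AP-1 gene higher, and upper-quartile scaling made the cyclin median -0.004 and called 1 of that list lower. MKI67, a proliferation marker, was at 17936 and 19723 in the combination libraries, against 16264 and 17132 in the RG3039 libraries (adjusted p = 0.628). Of 64 DNA replication genes MCM6, a subunit of the replicative helicase, alone fell (-0.66 ± 0.13, adjusted p = 0.0357), with a median of -0.19, and upper-quartile scaling called 3. Of 48 p53 target genes TP53I11 alone rose (0.86 ± 0.18, adjusted p = 0.0407; median 0.10), and of 50 BCL2 family and apoptosis genes 2 rose, among them that of the TNF receptor TNFRSF1B (0.85 ± 0.16, adjusted p = 0.0349), with a median of 0.02, or -0.01 under upper-quartile scaling. TNFRSF1B was at 4693 and 4356 in the combination libraries, against 2399.8 and 2625 in the RG3039 libraries, and at 2918 and 3919.9 in decitabine cells, against 3625 and 3842 in DMSO cells. Of 32 NF-kB feedback and survival genes IER3, an early response gene, rose to 15136 and 13235, against 4606 and 4824 in the RG3039 libraries (1.59 ± 0.27, adjusted p = 0.0201), beside IL1B (median 0.22). Of 57 lysosome genes the cathepsin gene CTSB (1.30 ± 0.20, adjusted p = 0.014), the autophagy receptor SQSTM1 (0.89 ± 0.17, adjusted p = 0.0359) and CTSS rose (median 0.31). Of 43 NRF2 and oxidative stress genes the ferritin heavy chain FTH1 (0.74 ± 0.15, adjusted p = 0.0434), PGD of the pentose phosphate pathway (0.76 ± 0.16, adjusted p = 0.0435) and GPX3 rose (median 0.09), the last at 31.5 and 50.4 and listed at 0 in both RG3039 libraries (adjusted p = 0.038). GPX3 was also listed at 0 in both DMSO libraries and passed the filter only through libraries with decitabine. The NRF2 share of 6.98% is thus partly set by the filter. Of 10 metallothionein genes MT1H alone rose (1.57 ± 0.25, adjusted p = 0.015, list median 0.48). Of 36 imprinted genes IGF2R, the mannose-6-phosphate receptor, alone rose (0.70 ± 0.13, adjusted p = 0.0331). The imprinted list's median was 0.30, and 0.05 with a mean of at least 50. Of the 12 called genes named here, 12 and 12 lost their call without combination replicate 1 or 2, 12 and 11 without RG3039 replicate 1 or 2, 7 and 8 without decitabine replicate 1 or 2, and 0 and 0 without DMSO replicate 1 or 2 (highest adjusted p 0.282), counting DCTPP1.

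The targets and the metabolism of the drugs themselves were read by fixed choice. DNMT1, the maintenance methyltransferase that decitabine traps, was at 4843 and 5966 in the combination libraries, against 9522 and 6551 in the RG3039 libraries (-0.56 ± 0.22, adjusted p = 0.226), and at 13058 and 9427 in decitabine cells, against 13815 and 11548 in DMSO cells. Its partner UHRF1 was at 1285 and 1295, against 1794 and 1692 in the RG3039 libraries (-0.43 ± 0.17, adjusted p = 0.226). The de novo methyltransferase genes DNMT3A (0.27 ± 0.25, adjusted p = 0.629) and DNMT3B (0.80 ± 0.37, adjusted p = 0.306) did not pass the test either, and none of 27 DNA methylation genes was called (median -0.17; 1 was higher with quantile normalization). DCPS, the target of RG3039, was at 543 and 416 in the combination libraries, against 966 and 659.7 in the RG3039 libraries (-0.75 ± 0.27, adjusted p = 0.182), and at 1100.3 and 865 in decitabine cells, against 960.2 and 657 in DMSO cells. DCK, which phosphorylates decitabine, was at 309.8 and 342, against 469 and 429 in the RG3039 libraries (-0.46 ± 0.20, adjusted p = 0.276). CDA, which inactivates decitabine by deamination, was at 3155 and 3828 in the combination libraries, against 2082 and 2353 in the RG3039 libraries (0.65 ± 0.19, adjusted p = 0.106), and at 705 and 844 in decitabine cells, against 379 and 471 in DMSO cells. Of 38 genes of decitabine uptake and metabolism DCTPP1, a nucleotide pyrophosphatase that removes modified deoxycytidine triphosphates, alone fell, at 1101 and 1166, against 2023 and 1912 in the RG3039 libraries (-0.80 ± 0.16, adjusted p = 0.0373; list median -0.26). The call of DCTPP1 was lost without either combination library, either RG3039 library or either decitabine library (adjusted p 0.0508 to 0.258).

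Decitabine against DMSO, the same drug step without RG3039, called 376 genes (2.14%), 305 higher (1.74%) and 71 lower (0.405%). With only the groups compared in each fit the counts were 339 in combination against RG3039 and 105 in decitabine against DMSO. Of the 261 genes that rose with decitabine on RG3039, 146 (55.9%) also rose with decitabine on DMSO, which is 47.9% of the 305. Of the 138 that fell, 31 (22.5%) also fell in decitabine against DMSO, which is 43.7% of the 71. No gene was called in opposite directions. Both comparisons used the same estimate of spread for each gene, from all 8 libraries, so these overlaps of calls are not independent. The sign was the same in 249 of the 261 (95.4%) and in 136 of the 138 (98.6%), against 66.1% over all tested genes. For PNMA5 the log2 fold change was 6.74 on RG3039 and 8.27 on DMSO, for HDC 6.18 and 5.11, and for MMP9 2.99 and 3.17. For NOP16 it was -1.37 on RG3039 and -0.39 on DMSO, and for EXOSC5 -1.09 and -0.23. Changes thus lay close together for MMP9 and further apart for EXOSC5. Across genes the Pearson correlation of the pair of log2 fold changes was 0.44; genes are not independent replicates. Without decitabine replicate 1 or 2, 86 and 79 genes were called in decitabine against DMSO, and 162 and 156 without combination replicate 1 or 2, and 145 without DMSO replicate 2.

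**Figure D5:**
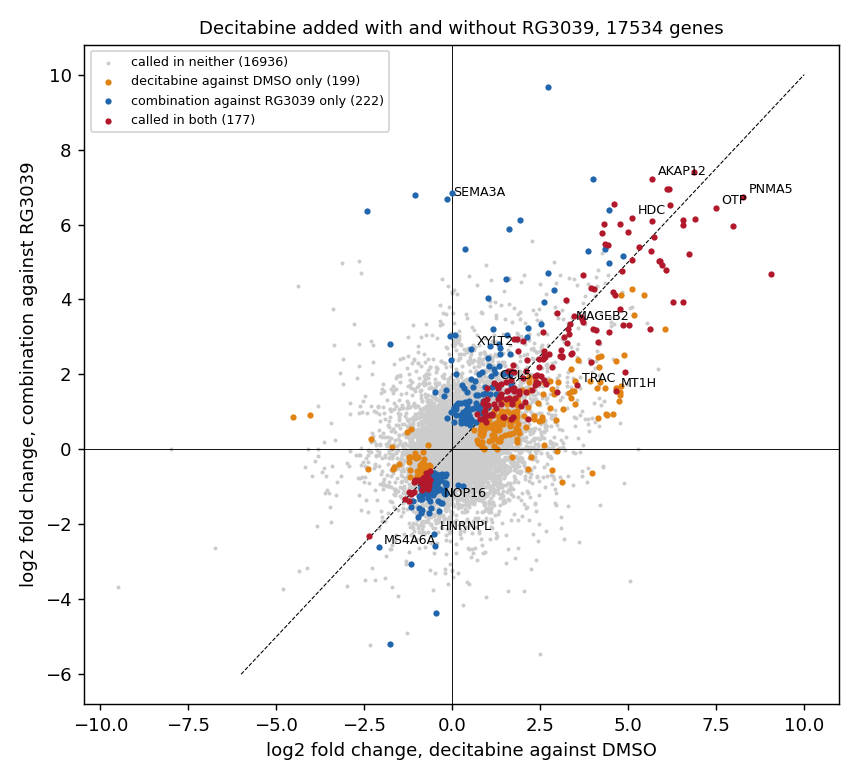
Log2 fold change of combination against RG3039 (vertical axis) and of decitabine against DMSO (horizontal axis) for 17534 genes, coloured by where they were called; the dashed line marks equal changes. The 177 genes called in both lie in the upper right and lower left of the plot, and genes listed at 0 in a whole group are drawn at their log2(value + 1) difference, which is no measured fold.

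Whether the step differed with and without RG3039 was tested gene by gene as the difference of these log2 fold changes. No gene was called (0%) by limma at an adjusted p under 0.05, and 1014 genes (5.78%) had an unadjusted p under 0.05. Between 0 and 2 genes were called when single libraries were left out. The standard error of this difference had a median of 0.46, so differences of several-fold in single genes were not detectable at this number of libraries. The smallest adjusted p was that of MT1H, a metallothionein with near-identical relatives, at 0.124. MT1H was at 736 and 746 in the combination libraries, against 245 and 253 in the RG3039 libraries, and at 328 and 342 in decitabine cells, against 12.9 and 12.1 in DMSO cells, a difference of log2 fold changes of -3.07 ± 0.35 (SE). XYLT2, a xylosyltransferase that starts proteoglycan chains, was at 874 and 819 in the combination libraries, against 103 and 164 in the RG3039 libraries (2.69 ± 0.28, adjusted p = 0.00288), and at 178 and 150.1 in decitabine cells, against 118 and 106 in DMSO cells, with an adjusted p of 0.505 for the difference (named after its values were seen). The call of XYLT2 in combination against RG3039 was lost without combination replicate 1 (adjusted p = 0.068), and that of MT1H without either library of the combination or of RG3039 (0.062 to 0.169). Only the combination was high for XYLT2, whereas MT1H was low in DMSO cells alone.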

How the data were processed

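RNA of HL-60 cells was read in 8 libraries, 2 in each of 4 groups given by the labels' titles: combination, RG3039, decitabine and DMSO. Per the labels' protocols, libraries were made with the QuantSeq 3′ FWD kit and read single-end. Each gene has a deposited signal, its read count normalised by library and not scaled by length. Salmon 1.2.1, STAR, featureCounts, DESeq2, limma and hg38 are named in the submitters' processing notes, with no link to a step. Whether counting used strand was not given in the sources used here. The median ratio of a library to the geometric mean was equal in all 8 (1.01). Low values were whole multiples of the value of 1 read in 97.5% to 98.1% of cases for genes with 1 transcript but in 74.4% to 80.8% over all genes, so no count test was run; depth was estimated as the total divided by that value, and totals were 27878600 to 32309900. Counting error was not added as intervals.

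Genes with a mean of at least 10 were taken as log2(value + 1), which understates changes of low genes, and limma 3.58.1 (R 4.3.3) fitted a mean for each of the 4 groups, with moderated variances that follow the trend in mean (4 residual and 5.51 prior degrees of freedom). The contrasts were combination against RG3039, decitabine against DMSO, and their difference. Tests were two-sided with Benjamini-Hochberg adjustment over all 17534 genes, called at an adjusted p under 0.05; errors are standard errors with n = 2 per group (median 0.32). The model was tested on simulated data.

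Identifiers were looked up in GENCODE 29 on GRCh38 (17206 of the tested genes found). The comparison and the 47 gene lists (2277 symbols, 2267 matched, 1853 tested) were chosen with earlier results of these data known, so lists are described by counts and medians without a test, and no p is adjusted over a list alone. Named were the 10 largest changes in each direction among called genes with a mean of at least 20 and groups that do not overlap, from each list up to 4 called members in order of p, DNMT1, DNMT3A, DNMT3B, UHRF1, DCPS, DCK and CDA, and, chosen after their values were seen, the genes called without each library, all other called list members, LAT, MYC, MKI67 and XYLT2. A few genes that meet these rules are counted but not reported by name here. Promoter windows came from RefSeq (GRCh38.p14). Alternatives were another pseudocount, filter, scaling or variance model, a replicate block, each library left out, and only the groups compared.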

Additional observations from a re-analysis of the deposited data

How the results depend on the processing

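The count of 399 genes called in combination against RG3039 (261 higher, 138 lower) lay between 339 and 533 under pseudocounts of 0.5 and 5, a mean of at least 50, upper-quartile scaling, quantile normalization, robust estimates and only the groups compared. It was 213 (161 higher, 52 lower) with no filter on low values and 147 (139 higher, 8 lower) without the variance trend. The lower count alone moved to 220 with upper-quartile scaling, 215 with robust estimates and 77 with only the groups compared. Decitabine against DMSO, with 376 calls, gave 225 with no filter, 210 without the trend and 105 with only the groups compared, where fewer libraries estimate the spread. The causes of the other moves were not tested. The difference of the steps called 0 genes in these fits, apart from that of only the groups compared, which was not run for it.

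Leaving out 1 library gave 21 to 454 genes called in combination against RG3039, 20 to 292 of them higher and 1 to 162 lower, 79 to 495 in decitabine against DMSO, and 0 to 2 for the difference of the steps. In such a fit the lone library of a group is assumed to vary like the others. Of the 399 genes, 19 remained called without combination replicate 1, 23 without combination replicate 2, 52 without RG3039 replicate 1 and 123 without RG3039 replicate 2. No named gene changed sign in any alternative.

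The labels do not say that replicate numbers mark a shared batch, and deviations of same-numbered libraries correlated between -0.08 and 0.16, so the numbers were not taken as pairs. With the replicate block, 688 genes were called in combination against RG3039 (359 higher, 329 lower), 525 in decitabine against DMSO and 0 for the difference.

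With 2 libraries per group the median standard error was 0.32 on the log2 scale, which limits calls to large or closely replicated changes. Genes near 0 in 1 group depend on the pseudocount. The filter used all 8 libraries, so list members near 0 without decitabine were tested only if libraries with it were high. Shares of lists called higher partly reflect this.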
